A study of Homo sapiens with 26 samples.

Results

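The alpha and beta globin loci were examined as 4 of the 26331 bins of 100 kb that were above 0 in 1 or more cells and were used. The alpha globin locus with its enhancers was taken as the 2 bins of chromosome 16 from 100001 to 300000 (hg19), and the beta globin locus with its control region as the 2 bins of chromosome 11 from 5200001 to 5400000. Bins were taken by their position in these loci and not by their values, and all 4 had values. The loci themselves were chosen with earlier results of these data known. The 6 genes they stand for are HBA1 and HBA2 on chromosome 16, and HBB, HBD, HBG1 and HBG2 on chromosome 11.

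The signal was DamID in 26 single cells of KBM7, a human myeloid leukaemia line with a nearly haploid genome. All cells were of clone 5-8, were labelled haploid (1N) and carried Dam that was not fused to another protein. Dam activity was induced with 0.5 nM Shield1, a small molecule that stabilises the enzyme, for 15 h, and cells positive for both Fucci cell cycle markers among the 2% smallest by scatter were sorted singly. The series title names lamin B1, whereas the sample labels name Dam alone, and the labels were followed. There was a single group from a single clone, so cells are not replicate cultures. No p-value was computed across them, and an SD here is the scatter of single cells within the clone.

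Dam is a bacterial enzyme that methylates adenine in the sequence GATC. When it is free in the nucleus it marks DNA that it can reach, and Dam without a chromatin protein as partner is commonly read as a map of accessible chromatin. Haemoglobin joins alpha-type and beta-type chains, which are encoded on different chromosomes. HBA1 and HBA2 encode the alpha chain, and HBB and HBD encode the beta and delta chains of adult haemoglobins. HBG1 and HBG2 encode the gamma chains of fetal haemoglobin. The alpha genes lie near the tip of chromosome 16 among widely expressed genes, and their main enhancers sit in introns of the neighbouring gene NPRL3. The beta genes lie inside a large array of olfactory receptor genes and depend on a distant control region upstream of them. From textbook knowledge of hg19, the bin from 100001 holds the alpha enhancers and the bin from 200001 holds HBA1 and HBA2. On chromosome 11 the bin from 5200001 holds HBB, HBD, HBG1 and HBG2, while most of the control region and further olfactory receptor genes lie in the bin from 5300001.

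The order of genes in RefSeq (GRCh38.p14) shows the contrast between these settings. Of the 20 protein-coding genes nearest to the beta cluster on the low-coordinate side, 19 were olfactory receptor genes, with OR51V1 next to HBB. On the high-coordinate side 13 of 20 were, interrupted by a group of TRIM genes that include TRIM5 and TRIM22, known for restricting viruses. Around the alpha cluster none of the 7 protein-coding genes toward the chromosome tip and none of the 20 on the other side was an olfactory receptor gene. NPRL3 and LUC7L were the nearest genes there.

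Promoter sequences show what Dam and the erythroid factor GATA1 could meet at single genes, a scale that 100 kb bins do not resolve. Of the 6 member genes, HBD had an entry in the RefSeq promoter table. It is shown with the alpha-like globin gene HBM, with NPRL3 and with OR51V1, as promoters of each locus. Each runs 5′ to 3′ from 250 bases before to 50 bases after the gene start (GRCh38.p14). Capitals mark GATC, the Dam target, and GATA on either strand, which reads GATA or TATC. These motifs do not share letters in the 4 sequences.
HBD (chr11:5234434-5234733, - strand): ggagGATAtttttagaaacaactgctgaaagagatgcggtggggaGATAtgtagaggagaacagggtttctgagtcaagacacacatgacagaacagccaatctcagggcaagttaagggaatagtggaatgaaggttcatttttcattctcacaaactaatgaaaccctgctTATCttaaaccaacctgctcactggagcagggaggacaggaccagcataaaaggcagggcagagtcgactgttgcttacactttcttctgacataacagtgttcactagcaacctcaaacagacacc
HBM (chr16:165728-166027, + strand): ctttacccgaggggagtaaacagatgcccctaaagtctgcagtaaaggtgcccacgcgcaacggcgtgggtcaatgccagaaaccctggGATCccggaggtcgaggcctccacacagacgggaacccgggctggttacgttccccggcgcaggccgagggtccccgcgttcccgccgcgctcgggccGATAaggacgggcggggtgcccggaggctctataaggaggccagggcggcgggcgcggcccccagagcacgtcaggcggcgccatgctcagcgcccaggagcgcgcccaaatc
NPRL3 (chr16:138624-138923, - strand): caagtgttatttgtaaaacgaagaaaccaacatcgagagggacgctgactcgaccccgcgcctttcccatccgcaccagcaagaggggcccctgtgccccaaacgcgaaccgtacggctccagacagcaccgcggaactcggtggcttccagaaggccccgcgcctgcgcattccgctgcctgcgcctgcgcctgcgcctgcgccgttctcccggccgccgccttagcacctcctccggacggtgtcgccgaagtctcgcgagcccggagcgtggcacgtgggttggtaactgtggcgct
OR51V1 (chr11:5200633-5200932, - strand): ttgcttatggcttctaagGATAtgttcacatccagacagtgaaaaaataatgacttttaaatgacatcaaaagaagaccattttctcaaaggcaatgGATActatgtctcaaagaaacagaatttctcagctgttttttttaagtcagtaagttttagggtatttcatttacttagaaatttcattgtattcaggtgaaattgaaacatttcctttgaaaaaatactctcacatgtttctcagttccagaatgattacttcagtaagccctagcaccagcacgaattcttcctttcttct
The HBM promoter held 1 GATC, and the other three held 0. GATC occurred in 41.7% of the 35116 promoters of the table. GATA on either strand occurred 3 times at HBD, 1 time at HBM, 2 times at OR51V1 and 0 times at NPRL3, and in 49.7% of all promoters. A match is a string of letters and does not show a bound site.

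The deposited value of a bin in a cell is a ratio of observed over expected signal. It was divided by the mean of that cell over all used bins, so that 1 is the average bin of the cell. Whole counts behind the ratios were recovered, and totalled 20182 to 178941 per cell with a median of 42448.5. That left a median of 8.0 counts per cell at the alpha locus and 2.0 at the beta locus, so single cells carry a large counting error. Intervals below are exact 95% Poisson intervals of summed counts, or exact binomial intervals for ratios of counts, and cover counting error only.

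The alpha globin locus was marked well above the average of the genome. Its ratio relative to the cell mean was lowest at 0.321 in cell 17, had a median of 2.43 and reached 7.29 in cell 16. It exceeded 1 in 23 of 26 cells and 2 in 14 cells, and every cell had at least 1 count there. The mean was 2.41 ± 1.52 (SD, n = 26 cells). Summed over cells, 251 counts were seen where 91.7 would lie at the genome average, a pooled level of 2.74 (2.41 to 3.10). The pooled level weights deep cells more and was therefore given beside the mean over cells. Among 26131 windows of 2 adjacent used bins, the mean at the alpha locus lay above 96.7%. Chromosome 16 itself was high, at 1.23 ± 0.174, and the locus exceeded its chromosome mean in 21 of 26 cells. Over all 26 cells the ratio of the locus to that mean was 1.94 ± 1.17.

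The 2 alpha bins had the same mean. A bin of 100 kb can hold neighbouring genes too, as the first does with NPRL3. Its level is therefore not that of the enhancers, or of HBA1 and HBA2, alone. The bin with the enhancers in NPRL3 ran from 0 to 5.86 with a median of 2.54, and its mean was 2.41 ± 1.45 from 143 counts. The bin with HBA1 and HBA2 ran from 0 to 9.26 with a median of 2.24, and its mean was 2.41 ± 2.26 from 108 counts. The first was higher in 17 cells and the second in 9, and the ratio of their pooled levels was 0.977 (0.756 to 1.27). They differed by less than counting error. HBA1 and HBA2 are near-identical copies, and the treatment of reads that match both is not stated in the labels. The recovered expectation of their bin was 67.7% of that of the median bin, against 91.8% for the enhancer bin.

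The beta globin locus was marked below the average of the genome. Its ratio relative to the cell mean was 0 in 6 cells, had a median of 0.512 and reached 1.54 in cell 23. It was above 1 in 7 of 26 cells and above 2 in 0. The mean was 0.612 ± 0.497 (SD, n = 26 cells), which lay above 34.2% of the 26131 windows. In all, 63 counts were seen where 102 would lie at the genome average, a pooled level of 0.615 (0.473 to 0.787). The locus was low beside its own chromosome too: chromosome 11 stood at 0.964 ± 0.118, and the locus was under the chromosome mean in 19 cells.

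Within the beta locus, the bin with HBB, HBD, HBG1 and HBG2 was at 0 in 16 of 26 cells. Its highest value was 3.08 in cell 23, its mean was 0.475 ± 0.777, and it held 21 counts in all. A value of 0 at this depth does not show that the genes could not be reached. The bin with most of the control region was at 0 in 10 cells, with a median of 0.571, a highest value of 2.39 and a mean of 0.748 ± 0.820 from 42 counts. The control region bin was higher in 13 cells, the gene bin in 7, and both were at 0 in 6. The pooled level of the gene bin was 0.683 times that of the control region bin, with an interval from 0.384 to 1.18 that includes 1. A difference between them was not detectable at this depth.

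**Figure D1:**
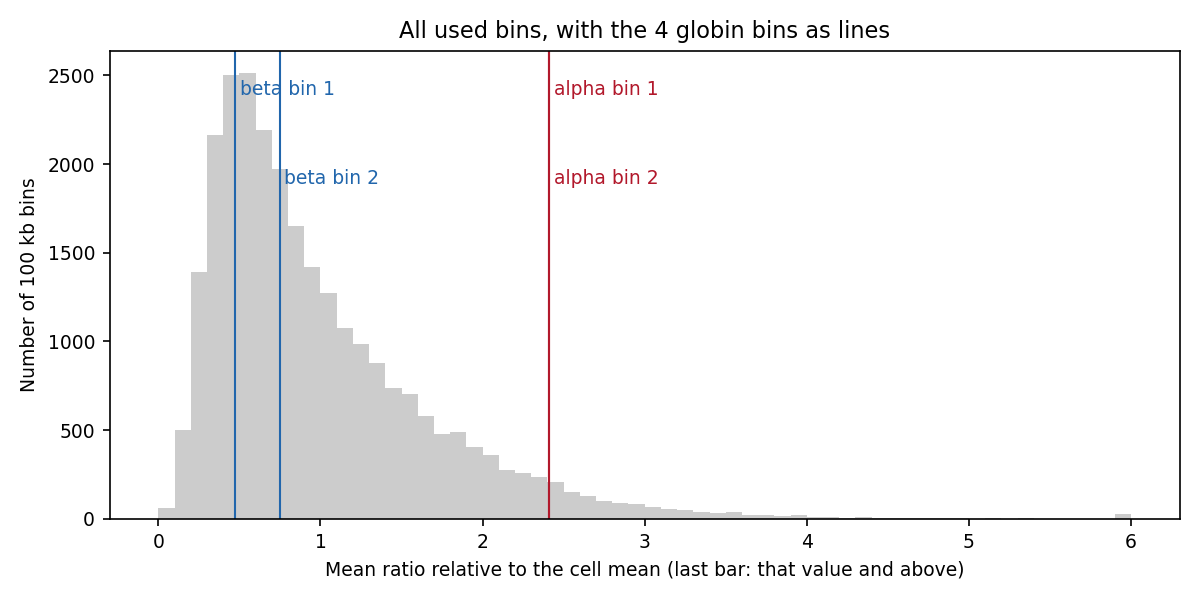
Number of used 100 kb bins (vertical axis) by mean ratio relative to the cell mean over 26 cells (horizontal axis, the last bar holding all higher values). Lines mark the 4 globin bins, with both alpha bins at 2.41 in the upper tail and the beta bins at 0.475 and 0.748, near the bulk of the genome.

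Bins were also described by the number of cells in which the deposited ratio was 1 or more. The alpha enhancer bin was positive in this sense in 23 cells (88.5%) and the HBA1 and HBA2 bin in 19 (73.1%). The enhancer bin thus reached 80% of cells, which 5.61% of all used bins did. The beta gene bin was positive in 5 cells (19.2%) and the control region bin in 8 (30.8%). The beta gene bin belonged to the 33.5% of used bins that reached this ratio in 20% of cells or fewer. The median used bin was positive in 8 cells, as many as the control region bin. Both alpha bins had a mean of 2 or more, as did 8.97% of used bins. Both beta bins had a mean under 1, as did 62.1% of used bins, so the beta bins are low in a way that most of the genome is.

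The alpha locus was marked more than the beta locus in 24 of 26 cells. The difference in relative ratio was lowest at -0.907 in cell 23, had a median of 1.5 and was highest at 6.82 in cell 16. Its mean was 1.80 ± 1.66. The exceptions were cells 17 and 23. In cell 17 the alpha locus had 1 count and the beta locus 4, and in cell 23 the counts were 1 and 2. By summed counts the alpha level was 4.45 times the beta level (3.36 to 5.96). With each locus taken over the mean of its own chromosome, alpha was higher in 22 cells and the mean difference was 1.3 ± 1.36. GC content, GATC density and DNA copy number of the bins were not analysed, and their part in the difference was not tested.

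In 20 cells both loci had counts, and in 6 cells only the alpha locus had. The reverse, counts at the beta locus alone, occurred in 0 cells. Cells without a beta count were not all shallow, since their median total was 43087.0 against 42448.5 in the other cells. In cell 5, for example, the alpha locus had 18 counts and the beta locus 0, where 6.56 would lie at the cell average. Cell 2 had 13 and 0, with 4.51 expected at the beta locus. At the other end, cell 4 had 15 alpha and 9 beta counts, and its beta level of 1.37 was above average.

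**Figure D2:**
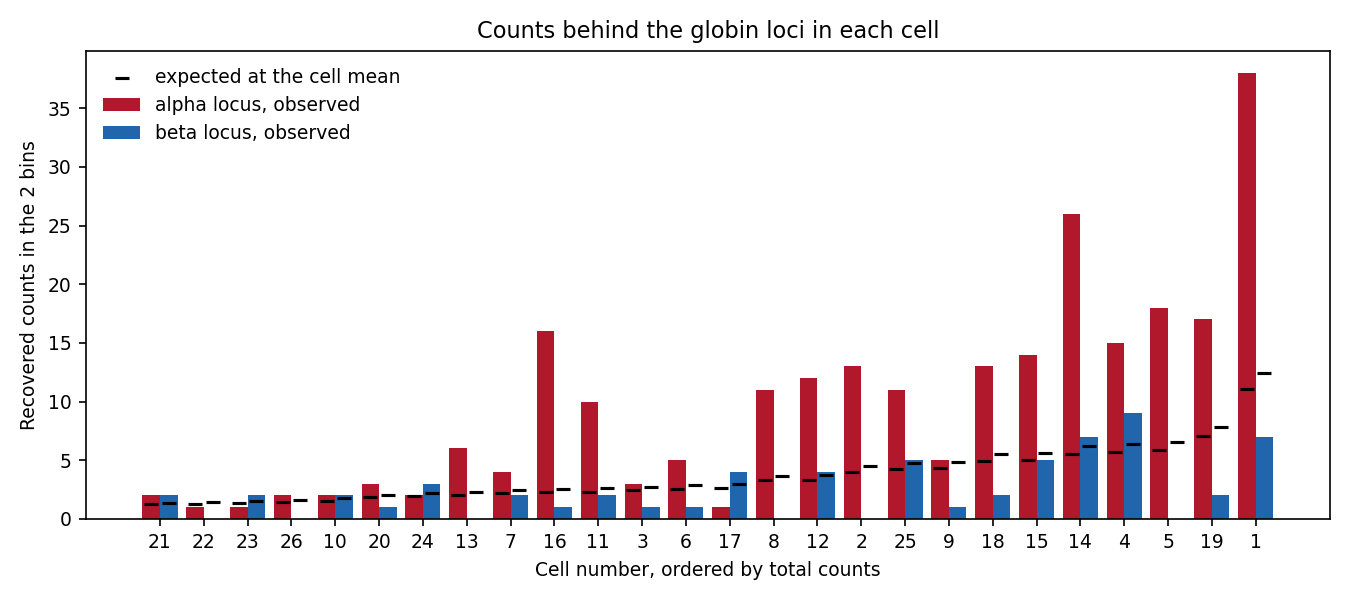
Recovered counts in the 2 bins of each locus (vertical axis) in each of the 26 cells, ordered by total counts (horizontal axis). Bars are observed counts and black marks the counts expected at the cell average. Alpha bars exceed their marks in most cells, up to 38 counts in cell 1, while beta bars run from 0 to 9.

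Around the alpha locus the signal was lower farther from the chromosome tip, though not evenly: the bin from 800001 averaged 1.45 ± 1.22. The flanks within 1 Mb comprised 11 bins, since only 100 kb lie between the locus and the chromosome start. They averaged 1.3 ± 0.471, and the locus was above them in 19 of 26 cells. The mean difference over all 26 cells was 1.12 ± 1.38. The next 0.2 Mb, which hold 2 bins at 1.95 each, were still high, and the locus was above them in 17 cells only. The pooled level of the locus was 1.52 times theirs (1.25 to 1.85). Over the bins from 500001 to 1300000 the mean was 0.920 ± 0.396, and the locus was higher in 24 cells, with a pooled ratio of 2.84 (2.41 to 3.34). The lowest flank bin, from 1000001, averaged 0.630 ± 0.677 and was at 0 in 12 cells.

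The bin at the very tip, from 1 to 100000, had the highest mean of this stretch, 2.99 ± 4.58. It rests on 14 counts in 10 cells, with an expectation of 10.8% of that of the median bin, and its pooled level was 2.26 (1.24 to 3.8). The 2 locus bins were higher than all 10 flank bins on their other side. With the tip bin left out, as the filter on expectation does, the locus was above its flanks in 21 cells. The mean difference over all 26 cells was then 1.29 ± 1.44.

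The beta locus did not stand apart from its surroundings. Its 20 flank bins averaged 0.689 ± 0.253, and the locus was above them in 10 cells and below them in 16. The difference was -0.0770 ± 0.488, and the pooled ratio was 0.832 (0.633 to 1.07), an interval that includes 1. Of the 20 flank bins, 17 were under 1 (background 62.1% of used bins), 8 were above both locus bins and 7 were below both. On the low-coordinate side the highest bin, from 4200001, averaged 0.877 ± 1.49. The lowest of all was the bin next to the beta genes, from 5100001, at 0.243 ± 0.420 with 8 of 26 cells above 0. Its mean lay above 3.98% of used bins. Over the 4 bins from 4800001 to 5200000 the mean was 0.358 ± 0.251, and the beta locus was higher in 16 cells, lower in 7 and equal in 3. The pooled ratio to that stretch was 1.34 (0.973 to 1.84).

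Some bins on the high-coordinate side of the beta locus were marked above average. The bin from 5600001 to 5700000, where TRIM genes are known to lie, ran from 0 to 5.9 with a median of 1.14 and averaged 1.51 ± 1.38. It exceeded the beta locus in 16 cells, was below it in 7 and equal to it in 3. The pooled level of the beta locus was 0.423 times that of this bin (0.301 to 0.592). The highest flank bin, from 6200001, averaged 1.61 ± 1.23 and was positive in 16 cells, while the lowest on that side, from 6100001, averaged 0.330 ± 0.437. The TRIM bin was singled out after its value was seen. The neighbourhoods differed as the loci did: the alpha flanks were above the beta flanks in 24 of 26 cells. The mean difference over all 26 cells was 0.607 ± 0.459, with a pooled ratio of 1.55 (1.39 to 1.73). The pooled ratio of the loci themselves, 4.45, was larger.

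**Figure D3:**
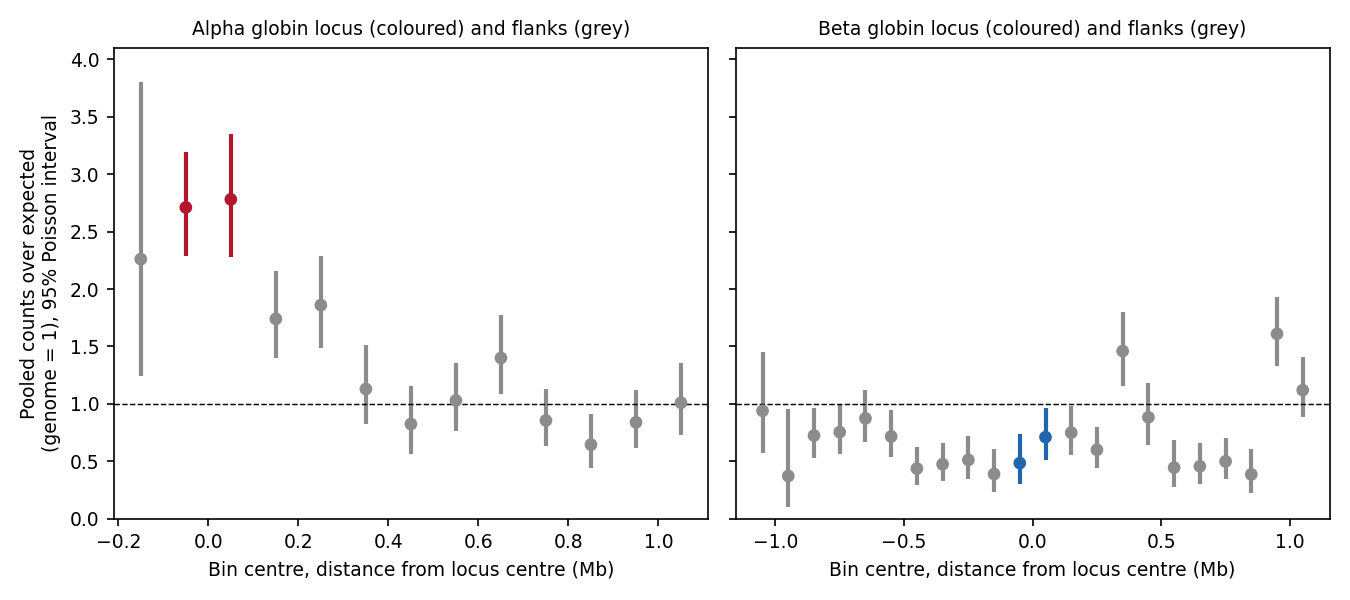
Summed counts over expected counts with the genome at 1 (vertical axis) for each 100 kb bin by distance from the locus centre in Mb (horizontal axis), with exact 95% Poisson intervals. The alpha bins (red) at 2.71 and 2.78 are the highest of their stretch. The tip bin, at 2.26 from 14 counts, has an interval (1.24 to 3.80) that covers both. On the other side bins at 1.74 and 1.86 follow the alpha bins, and the bins beyond lie between 0.646 and 1.40. The beta bins (blue) at 0.485 and 0.711 lie within a low stretch broken by bins at 1.46 and 1.61.

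The same place near the tip was read on other chromosomes. The window from 100001 to 300000 had both bins in use on 14 chromosomes, a comparison chosen after the values were seen. On the other 13 the mean relative ratio had a median of 0.988 and ran from 0.439 on chromosome 3 to 2.83 on chromosome 6, with 6 of the 13 above 1. The chromosome 16 window exceeded 12 of them. Chromosome 6 alone was higher, and there the alpha locus was above that window in 10 of 26 cells. Chromosome 11 had 1.45 ± 1.63 in its tip window, which was above 1 in 13 of 26 cells. The low mean at the beta locus was thus not shared by that window, though its spread over cells was wide.

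Cells differed in the level of both loci, though not more than at other windows. The variance of the counts over cells, divided by that of counting noise alone, was 2.08 at the alpha locus. The median was 2.06 over the 2716 windows whose summed counts were within 20% of the same number. At the beta locus it was 1.51, against 1.67 over 4870 such windows. Counting noise alone gives about 1.

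The alpha level went with the depth of the cell. Its Spearman correlation with total counts was 0.51 over 26 cells, and Pearson's r with log10 of the total was 0.38, or 0.70 without cells 11 and 16. Windows of like mean level had a median Spearman correlation of 0.09, and the alpha value lay above 98.8% of these 1957 windows. In the 13 shallower cells (at most 41669 counts) the pooled alpha level was 2.32 (1.76 to 3.01), and in the 13 deeper cells 2.89 (2.50 to 3.33), intervals that overlap. The beta level had a Spearman correlation of -0.10 with depth, and its pooled level was 0.619 in the shallower and 0.614 in the deeper cells. With every cell thinned to 20000 counts the alpha mean was 2.30 ± 1.68 and the beta mean 0.495 ± 0.608, and alpha was above 1 in 17 cells. What part depth has in the alpha level of single cells was not tested.

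The 2 loci did not rise and fall together in a way these counts could show. Over 26 cells of the same clone, each pair of values sharing a library and its depth, Pearson's r between alpha and beta was -0.12, Spearman's rho -0.12 and r without the 2 cells farthest from the median -0.12. The alpha bins correlated at 0.31, and at 0.04 without cells 14 and 16. The beta bins correlated at -0.22, and at -0.04 without cells 7 and 23. Adjacent used bins had a median of 0.09, with 5% of pairs below -0.25 and 5% above 0.57, so both values are ordinary. The alpha locus and its flanks had r = 0.45, which rested on cell 16: it was 0.15 without that cell and -0.07 without cells 11 and 16. The beta locus and its flanks had r = 0.29, and 0.21 without cells 4 and 23.

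**Figure D4:**
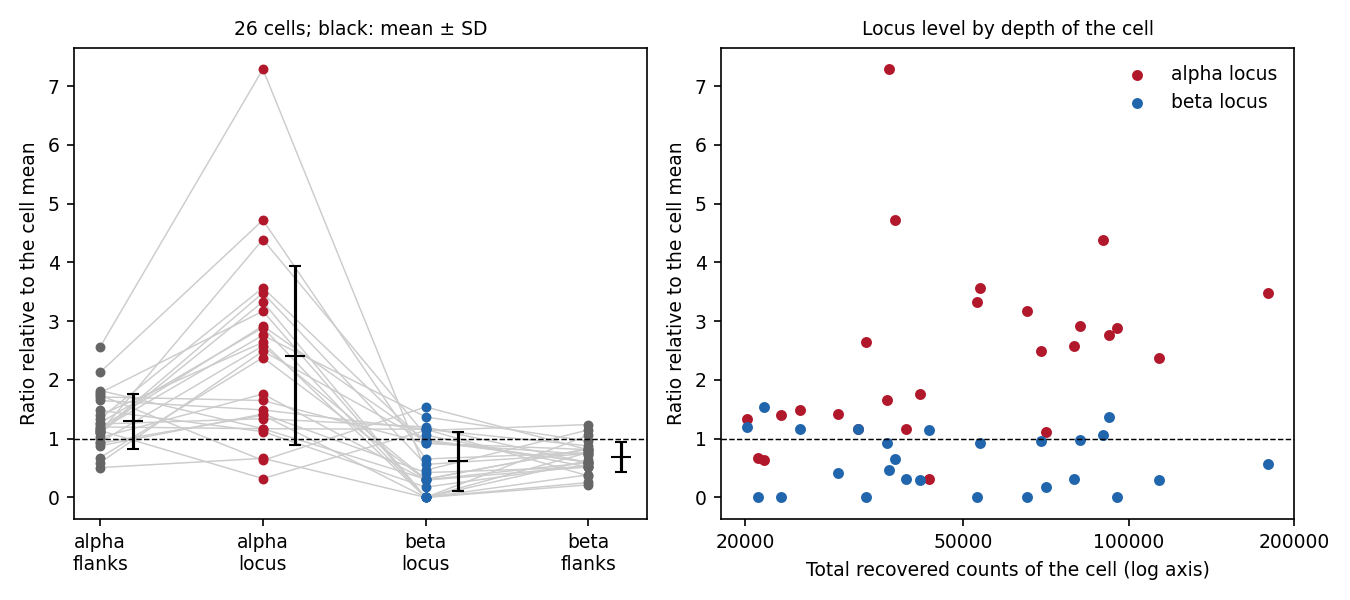
Left, ratio relative to the cell mean (vertical axis) at both loci and their flanks, with 1 point and line per cell and mean ± SD in black. Right, the same ratio for alpha (red) and beta (blue) by total counts of the cell on a log axis. Alpha points lie mostly above 1 and beta points mostly below, and cell 16 at 7.29 stands highest.

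The globin loci were set beside 13 genes of the erythroid programme and of globin switching, each taken as the bins that hold it by textbook hg19 position. The median of the 13 was 1.92, against 0.793 over all used bins. Of the 13 genes 12 had a mean above 1, as did 37.9% of used bins, and 5 had a mean of 2 or more, against 8.97%. Of their 17 bins, 7 reached a ratio of 1 in 80% of cells or more, against the 5.61% of used bins given above. The gene list was chosen with earlier results of these data known, so these shares are not independent of the data. These bins of 100 kb hold other genes too, the gene density around them was not analysed, and the comparison with the genome is a description only.

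Of 6 transcription factors and cofactors that act on the globin loci, 3 had a mean above that of the alpha locus and 3 below. The bin of NFE2, which binds the beta control region, ran from 0.710 to 11.7 with a median of 3.79, and averaged 4.36 ± 2.63. TAL1 averaged 3.39 ± 1.88 and was above 1 in 24 cells. Its partner LMO2 averaged 3.29 ± 1.62 over 2 bins, and the looping cofactor LDB1 1.98 ± 1.07. GATA1 at 1.39 ± 0.751 and KLF1, an activator of HBB, at 1.68 ± 0.919 were lower. The alpha locus was above GATA1 in 20 cells and above KLF1 in 17, but above NFE2 in 8.

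Among the genes listed under the switch from gamma to beta chains, MYB averaged 4.30 ± 2.74, with a range from 0 to 12.8 and a median of 3.68. Its neighbour HBS1L averaged 1.92 ± 0.821 over 3 bins, and BCL11A, a repressor of the gamma genes, 1.52 ± 0.840 over 2. The beta locus was below MYB and below HBS1L in 24 cells each, and below BCL11A in 23.

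Genes of the red cell itself had means from 0.709 to 3.10. EPOR, the erythropoietin receptor, averaged 3.10 ± 1.99, and SLC4A1, the anion exchanger band 3, 1.84 ± 1.70. AHSP, which binds free alpha chains, averaged 1.43 ± 1.12. ALAS2, the erythroid enzyme that starts haem synthesis, averaged 0.709 ± 0.857 and was at 0 in 11 cells. Beta globin lay below all 13 means in this order. Within cells, however, it was below ALAS2, the next above it, in only 11 of 26 and equal to it in 3. Alpha globin lay between LDB1 and EPOR by mean, and was above LDB1 in 16 cells and above EPOR in 12.

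**Figure D5:**
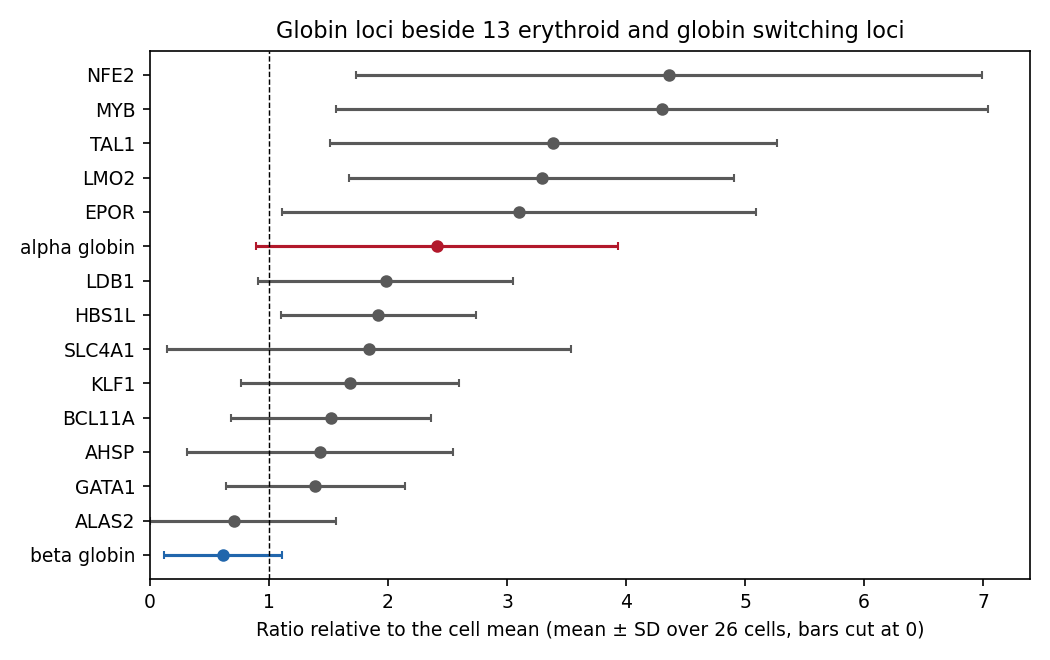
Mean ratio relative to the cell mean (horizontal axis, bars are SD over 26 cells and end at 0) for the alpha locus (red), the beta locus (blue) and 13 listed genes (grey), in order of the mean. NFE2 at 4.36 is highest, alpha globin at 2.41 lies in the upper part of the order, and beta globin at 0.612 is the lowest of those shown.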

How the data were processed

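Single-cell DamID was analysed in 26 KBM7 cells. The submitters' processing notes name cutadapt, Bowtie2 2.1.0 and the build hg19. The deposited values are a linear ratio of observed over expected signal per 100 kb bin and cell, as read from the deposited table. The counting of reads, the handling of PCR copies and the model behind the expectation are not stated in the labels. Of 30376 bins, 3792 had no value and 253 were 0 in all cells. Whole counts were recovered from the ratios (largest distance from a whole number 2.59e-08, tolerance 0.001), and the procedure was tested on simulated counts. Totals per cell set the precision given with the results.

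The level of a locus is the mean over its bins of the ratio divided by the cell mean. Named were the member genes, the locus bins, the highest and lowest flank bins, the 13 listed genes (a further locus of the list is not reported here) and the 3 bins most like each locus. The loci and the gene list were chosen with earlier results of these data known, and the bins within them by position. Alternatives were summed counts, a minimum expectation, capping at the 99th percentile, log2 values with 0.1 added, chromosome means, flanks of 0.5 Mb, other values that define positive and omission of the 6 cells with the fewest bins above 0. Thinning to 20000 counts and leaving out cell 22, whose Spearman correlation with the other cells averaged 0.0510 across bins against 0.191 in the next lowest cell, were added after the data were seen. Windows of like level or counts lie within 20% of the value of the locus. Gene order and promoters came from RefSeq GRCh38.p14, and no coordinate was carried between builds. Python 3.11.15 was used, with scipy 1.17.1, numpy 2.4.6, matplotlib 3.10.9 and pandas 2.3.3.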

Additional observations from a re-analysis of the deposited data

How the results depend on the processing

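Each of the 5 levels and differences was recomputed under 8 alternatives, and each kept its direction. Shifts stayed within 1 SD over cells, a wide margin here, so the ranges matter more. The alpha level ran from 1.94 relative to the chromosome mean to 2.73 when the 6 cells with the fewest bins above 0 were omitted, and the beta level from 0.495 with thinned counts to 0.644 by summed counts. Alpha minus beta ran from 1.3 to 2.13, and was 2.23 on the log2 scale. Alpha minus its flanks ran from 0.799 with flanks of 0.5 Mb to 1.42 without the 6 cells, and was 1.38 on the log2 scale. Beta minus its flanks ran from -0.167 to -0.00303, and was -0.19 on the log2 scale. The levels themselves, as the mean log2 of the bins with 0.1 added, were 0.55 for alpha (above 0 in 19 cells) and -1.68 for beta, lower than the linear means would give. With thinned counts alpha was above 1 in 17 cells, against 23. The share of cells in which a bin is positive depends on the value that defines it. At 2 or more it was 57.7% for the alpha enhancer bin and 53.8% for the HBA1 and HBA2 bin. It was then 3.85% for the beta gene bin and 11.5% for the control region bin. At 0.5 or more the 4 values in the same order were 92.3%, 80.8%, 34.6% and 53.8%. Shares over all used bins were not computed at 2 or 0.5, so these values cannot be set against the genome. Correlations kept their sign in the 4 alternatives run on them. Leaving out the 2 cells farthest from the median, as given above, was a further check. There the correlation of alpha with its flanks changed sign, from 0.45 to -0.07. No paired analysis was possible because all cells form a single group, whose numbers pair no samples. Differences between loci were taken within each cell.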

Other observations

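Bins elsewhere in the genome, above 0 in at least 20 cells, were ranked by how closely they followed a globin locus over the 26 cells. The 3 highest for each locus held no globin or listed gene. The beta bins, above 0 in 10 and 16 cells, could not qualify, nor could the bin of ALAS2, at 0 in 11 cells. Their absence from the highest bins therefore carries no information. For the alpha locus they were chromosome 2 from 173100001 to 173200000 (Pearson's r = 0.81), chromosome 14 from 103900001 to 104000000 (0.77) and chromosome 2 from 25500001 to 25600000 (0.74). For the beta locus they were chromosome 15 from 42500001 to 42600000 (0.69), chromosome 6 from 40300001 to 40400000 (0.68) and chromosome 10 from 70600001 to 70700000 (0.68). They are the highest of 8355 and 8330 bins above 0 in at least 20 cells, on other chromosomes or over 10 Mb away. The cells share a library and its depth with every bin, and these values, picked as the highest of many, are a description. How far they rest on single cells, such as cell 16 for the alpha locus, was not tested.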
